A study of Homo sapiens with 58 samples.

Results

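Albumin, alpha-fetoprotein (AFP) and 8 other secreted carrier protein genes (TTR, TF, HP, HPX, SERPINA1, AHSG, RBP4 and AMBP) were followed through herbal extract treatments of HepG2, an established human hepatocellular carcinoma cell line. The 10 genes were taken by symbol, as a named list, from a table of 60675 gene identifiers, and all 10 were found and passed the filter on low counts. The study measured messenger RNA after 24 h in 58 libraries that form 24 groups. Hot water extracts of the herbal formulas Sayeok-tang and Bojungikgi-tang were added at 500 (high), 100 (medium) and 20 (low) µg/mL. The same doses were used for 70% ethanol extracts of single herbs, namely Scutellariae Radix, Pinelliae Tuber, Zizyphi Fructus, Zingiberis Rhizoma (called dried ginger below) and Zingiberis Rhizoma Recens (fresh ginger). Coptidis Rhizoma, another 70% ethanol extract, had 56 µg/mL as its medium and 11.2 µg/mL as its low dose. Control cells had the solvent DMSO alone (vehicle, 0.1% in the sample labels and 2% in the series text). Groups held 3 libraries, except 2 at each dose of Bojungikgi-tang and at the high dose of dried ginger, and a lone library for every dose of Zizyphi Fructus and Coptidis Rhizoma. HepG2 is a tumour line of hepatocyte type from a single donor and holds no other liver cells, so these levels are those of that line.

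Hepatocytes make most plasma proteins and secrete them through the endoplasmic reticulum and Golgi. Albumin, the most abundant plasma protein, binds fatty acids, bilirubin and many drugs, and AFP is its fetal relative, encoded beside it and kept on in many liver tumours. Transferrin (TF) carries iron, haptoglobin (HP) binds free haemoglobin and hemopexin (HPX) binds free haem. Transthyretin (TTR) carries thyroxine and, through retinol-binding protein 4 (RBP4), retinol. Alpha-1-antitrypsin (SERPINA1) inhibits neutrophil elastase, fetuin-A (AHSG) keeps calcium phosphate in solution, and AMBP encodes both alpha-1-microglobulin and bikunin, a light chain of inter-alpha-trypsin inhibitors. In liver these genes are known to be driven by factors such as HNF1, HNF4, C/EBP and FOXA proteins, and HP and HPX are classic acute phase genes.

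Of the 10 genes, 8 have promoter entries in the RefSeq table used here (GRCh38.p14). TTR and HP have no entry in it. The 150 bases before the start are shown for ALB and AFP, which lie side by side on chromosome 4, for the start of SERPINA1 that shares a motif with them, for HPX, which fell with 4 extracts, and for AMBP, which rose with the same 4. Each is printed 5′ to 3′ on the strand of its gene, with capitals marking matches on either strand to any of 6 motifs: GTTAAT (a core of the HNF1 recognition sequence), TTGCNNAA (C/EBP-like), TTCNNNGAA (STAT-like), CCAAT (the CCAAT box), TATAAA (the TATA box) and TGTTTNC (forkhead-like). Motif matches did not overlap each other in the windows shown, while in a TF window a TTGCNNAA and a CCAAT match overlap.
ALB, plus strand, chr4:73404137-73404286: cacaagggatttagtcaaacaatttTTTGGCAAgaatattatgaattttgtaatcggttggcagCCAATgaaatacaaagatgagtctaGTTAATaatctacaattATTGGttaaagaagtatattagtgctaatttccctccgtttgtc
AFP, plus strand, chr4:73436071-73436220: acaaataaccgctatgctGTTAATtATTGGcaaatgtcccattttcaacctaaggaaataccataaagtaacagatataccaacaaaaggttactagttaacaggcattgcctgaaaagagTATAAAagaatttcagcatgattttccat
SERPINA1, minus strand, chr14:94388603-94388752: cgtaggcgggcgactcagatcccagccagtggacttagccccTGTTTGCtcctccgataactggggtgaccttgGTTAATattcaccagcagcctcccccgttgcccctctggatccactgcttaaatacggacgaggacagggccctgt
HPX, minus strand, chr11:6440988-6441137: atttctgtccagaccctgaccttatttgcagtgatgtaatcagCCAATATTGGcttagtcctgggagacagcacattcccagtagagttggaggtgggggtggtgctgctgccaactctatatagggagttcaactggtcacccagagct
AMBP, minus strand, chr9:114078301-114078450: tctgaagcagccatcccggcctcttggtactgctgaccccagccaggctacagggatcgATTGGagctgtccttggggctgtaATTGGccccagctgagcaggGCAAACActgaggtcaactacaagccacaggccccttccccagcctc

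GTTAAT stood at -61 to -56 in ALB, at -132 to -127 in AFP and at -76 to -71 before the second listed start of SERPINA1, counted back from the start site. The remaining windows among the 12 of these 8 genes, with that of the first SERPINA1 start, held no GTTAAT. Since the SERPINA1 window was picked for this match, its sharing of the motif is no separate finding. Over the 35116 promoter windows of the table, 3.52% held GTTAAT, 5.02% TTGCNNAA, 3.66% TTCNNNGAA, 23.5% CCAAT, 6.71% TATAAA and 9.33% TGTTTNC. In HPX the capitals are 2 CCAAT matches on opposite strands, in AMBP they are 2 CCAAT matches and a TGTTTNC match, all on the opposite strand, and no member window held TTCNNNGAA. These are matches of letters and not measured binding.

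The libraries held 22143845 to 31859981 expected counts each (24077535 to 26409029 in the vehicle). Levels are given as CPM (counts relative to the library total after TMM scaling), with SD standing for the standard deviation between replicates. Fold changes are log2 values with a standard error (SE) from the edgeR quasi-likelihood fit over all 24 groups, and a gene was called at a Benjamini-Hochberg adjusted p below 0.05 over 13945 tested genes. Nothing in the labels shows that replicates came from different cultures, so p-values measure the spread between libraries, which may be technical. The vehicle libraries have a code prefix of their own while the extracts share prefixes in pairs, so in comparisons with the vehicle a handling set, if that is what a prefix marks, cannot be told apart from treatment, and comparisons within a pair do not have this limit. All 8 hepatocyte and hepatoma markers on a list without the 10 genes were detected, at 17160 to 27100 CPM summed (22100 to 23910 in the vehicle). Of the fibroblast markers COL1A2 and DCN were at 0 in every library, as were the blood markers PTPRC and HBB and the endothelial marker EMCN. Summed levels were 3.85 to 24.15 CPM for the 6 fibroblast and 2.623 to 5.072 CPM for the 5 endothelial markers, and 1153 to 2321 CPM (1293 to 1371 in the vehicle) for the 6 leukocyte and blood markers, nearly all of it LYZ. Both fibroblast markers that passed the filter fell with high dose Scutellariae Radix, with a median log2 change of -1.71, and the part of these markers in the results was not tested. Replicate 3 of Scutellariae Radix low and replicate 3 of dried ginger low stood apart from their own replicates, with a chi-square per gene of 11.88 to 14.71 against them where the other replicate pairs had a median of 3.36 and a highest value of 8.25, and calls that change without them are given both ways. In bulk libraries, less RNA per cell and fewer cells making it cannot be told apart.

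In vehicle cells the 10 genes together took 2.4568 to 2.618% of all counts. Per kilobase of coding sequence, ALB was highest at 5643 ± 143 CPM per kb (SD, n = 3), followed by SERPINA1 at 4197 ± 207, AFP at 2148 ± 87.8 and AHSG at 1679 ± 87.1. TF stood at 1043 ± 44.9, RBP4 at 862.9 ± 50 and AMBP at 767.7 ± 29.1 CPM per kb. The lowest 3 were HP at 157.9 ± 2.58, TTR at 122.5 ± 13.7 and HPX at 9.173 ± 0.548 CPM per kb. The vehicle libraries of neighbours in this order did not overlap. The scale was chosen after seeing the data, and per kilobase of principal transcript AMBP (565.4) lay above RBP4 (487.2) and TF (106) below HP (133.2). The TF value there rests on an annotated transcript of 20602 bases with 2094 coding bases, where HP has 1443 and 1218. Before division by length, TF stood at 2185 CPM and HP at 192.3 CPM in the vehicle. TTR and HPX were thus weakly expressed here although both encode major plasma proteins. Over the groups, the spread between replicates was small, with a median coefficient of variation of 1.66% for TF, 1.88% for AFP, 2.43% for ALB, 3.13% for HP and 5.97% for HPX.

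The first comparison asked how each extract at its high dose changed these genes against the vehicle. Of 60 tests over the 6 replicated extracts, 36 were called, 6 higher and 30 lower, beside 35.2% of all tests over all genes. The shares over all genes, here and below, were not matched for expression level, and small changes are easier to call in highly expressed genes. Scutellariae Radix had all 10 genes called, 1 higher and 9 lower, where 56.7% of all tested genes were called (28.7% higher and 28.1% lower). Dried ginger had 8, 1 higher and 7 lower (46.1% of all, 23.3% higher and 22.8% lower), and fresh ginger 8, 3 higher and 5 lower (47.9% of all, 24.3% higher and 23.6% lower). Sayeok-tang had 7, 1 higher and 6 lower (40.2% of all, 20.3% higher and 19.9% lower). Pinelliae Tuber had 3, all lower (15.7% of all, 9.14% higher and 6.57% lower). Bojungikgi-tang had 0 called in edgeR (4.55% of all). In DESeq2 it had 2, where 257 of all genes were higher and 284 lower. At an unadjusted p below 0.05 in edgeR it had 4, and the share over all genes at that threshold was not computed. The median log2 change of the 10 genes was -0.45 with Scutellariae Radix, -0.33 with dried ginger, -0.17 with Sayeok-tang and -0.13 with fresh ginger, where the median of all genes lay between 0 and 0.009. As a share of library counts, the 10 genes fell to 1.9975 to 2.015% with Scutellariae Radix, 2.0093 to 2.035% with dried ginger and 2.0918 to 2.18% with Sayeok-tang. The share was 2.2922 to 2.328% with fresh ginger, 2.3613 to 2.362% with Bojungikgi-tang and 2.3734 to 2.456% with Pinelliae Tuber. The libraries of all 6 groups thus lay below the vehicle libraries. For Pinelliae Tuber they did so only barely, with 2.4562% in its replicate 3 against 2.4568% in vehicle replicate 2.

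**Figure D1:**
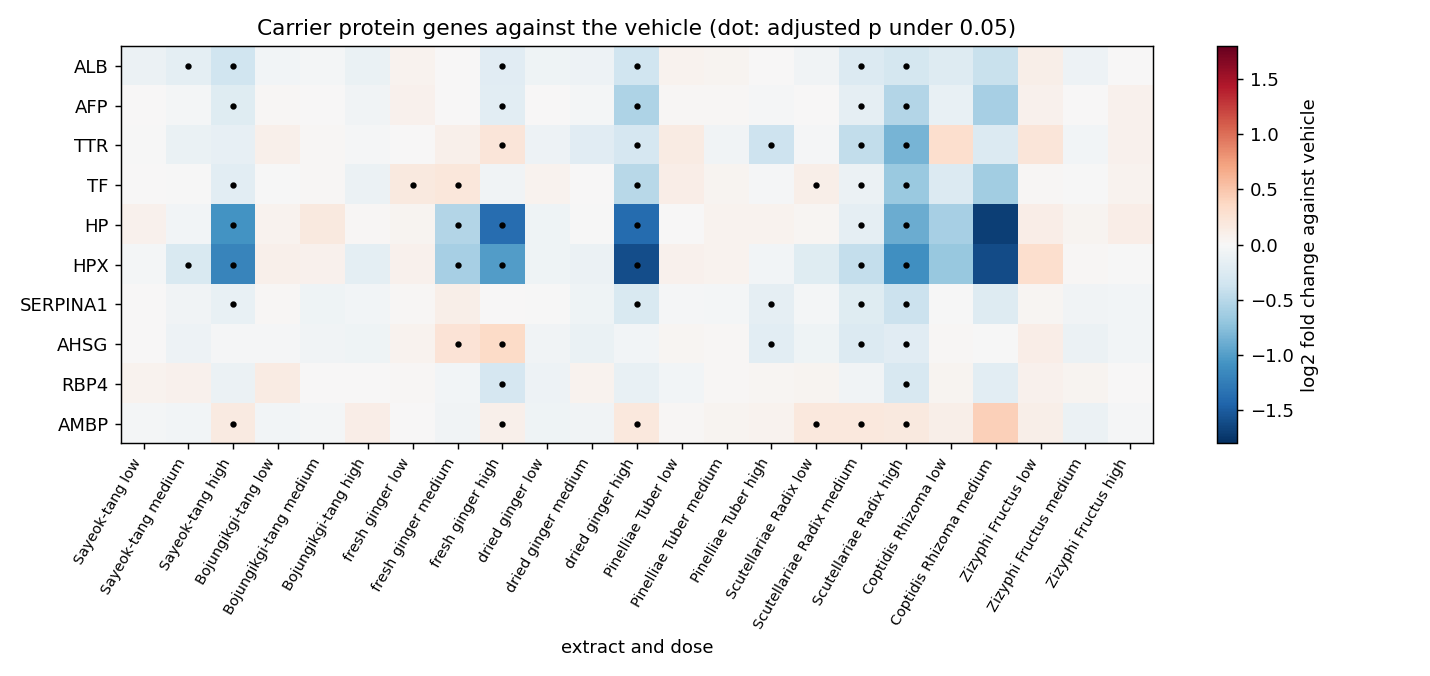
Log2 fold change against the vehicle (colour) of the 10 carrier protein genes (rows) for each extract and dose (columns), with a dot where the adjusted p was below 0.05; groups of 1 library (Coptidis Rhizoma and Zizyphi Fructus) have no test. HP and HPX carry the deepest blue, at the high doses of Sayeok-tang, both gingers and Scutellariae Radix and in the Coptidis Rhizoma medium library, and AMBP is red in those columns but not at the medium dose of fresh ginger, where HP and HPX were lower too.

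HP and HPX, the carriers of haemoglobin and haem, fell furthest. HP (ENSG00000257017, GRCh38 chr16:72054592-72061055) stood at 190, 191 and 195.9 CPM in the vehicle libraries. At the high dose it was 95.38, 85.57 and 92.3 CPM with Sayeok-tang and 74.87, 77.22 and 71.31 CPM with fresh ginger. Every one of these libraries lay below every vehicle library. Dried ginger gave 69.76 and 76.94 CPM and Scutellariae Radix 97.69, 102.9 and 109.7 CPM. The falls in HP were -1.08 ± 0.046 with Sayeok-tang (adjusted p = 1.5e-23), -1.37 ± 0.047 with fresh ginger (1.7e-27), -1.39 ± 0.055 with dried ginger (3.4e-25) and -0.895 ± 0.046 with Scutellariae Radix (2.2e-21, edgeR with Benjamini-Hochberg adjustment). HP fell by 61.9% with dried ginger and fell by 46.2% with Scutellariae Radix. Bojungikgi-tang left it at 195.2 and 196.3 CPM and Pinelliae Tuber at 204.9, 193.5 and 203.8 CPM, with log2 changes of 0.03 (95% interval -0.075 to 0.127) and 0.06 (-0.028 to 0.153) that were not called.

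HPX (ENSG00000110169, chr11:6431049-6442617) was low throughout, at 12.33, 12.22 and 13.59 CPM in the vehicle. With Sayeok-tang it was 5.56, 5.824 and 5.307 CPM, a change of -1.19 ± 0.086 (adjusted p = 1e-15). With dried ginger it was 4.447 and 3.976 CPM, the lowest of the tested groups (-1.59 ± 0.106, adjusted p = 4.9e-17), and it fell by 66.8%. Fresh ginger had 6.82, 6.039 and 6.116 CPM (-1.01 ± 0.085, 6.8e-14) and Scutellariae Radix 5.193, 6.47 and 6.198 CPM (-1.10 ± 0.085, 3.7e-15). In these 4 groups the HPX libraries lay wholly below the vehicle, while Pinelliae Tuber, at 12.14 to 12.51 CPM, overlapped it. HP and HPX ran alike over the study, with a Pearson correlation of 0.966 between their mean log2 CPM over the 24 groups, which share the library scaling and include several doses of each extract.

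HP shares sequence with its near-identical copy HPR, whose reads amounted to 13.2012% of those of HP, and the counting may have split reads between them. The log2 changes of HPR were -1.34 with fresh ginger, -1.20 with dried ginger, -0.975 with Sayeok-tang and -0.85 with Scutellariae Radix, all called. HPR was also called with Pinelliae Tuber (-0.31, adjusted p = 0.00012), where HP was not. TXNL4B, on the opposite strand across HP, had reads equal to 13.5564% of those of HP. The kit keeps strand, but whether the counting used it is not given in the sources used here. TXNL4B stood at 22.35 ± 0.775 CPM (n = 3) with high dose Sayeok-tang and at 23.19 ± 1.1 in the vehicle (n = 3), with no call (-0.05 ± 0.055). It was lower with dried ginger (-0.19, adjusted p = 0.011) and fresh ginger (-0.13, 0.049) and higher with Scutellariae Radix (0.13, 0.037).

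**Figure D2:**
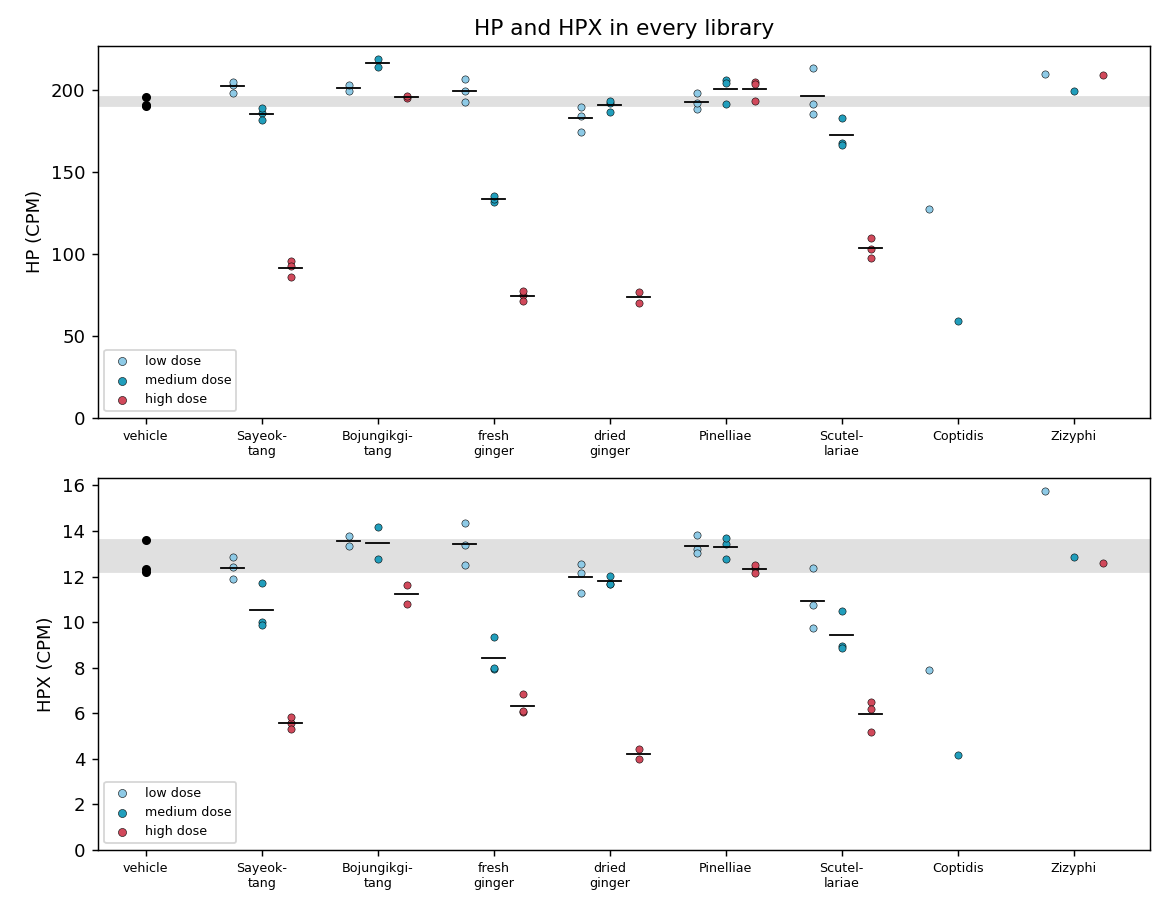
CPM of HP (top) and HPX (bottom) in each library (points) by extract and dose (colour), with the mean as a short line where a group has more than 1 library and the range of the 3 vehicle libraries as a grey band. At the high dose of Sayeok-tang, both gingers and Scutellariae Radix all points lie below the vehicle band, while Bojungikgi-tang and Pinelliae Tuber stay at or above it for HP, at 195.2 to 196.3 and 193.5 to 204.9 CPM.

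ALB and AFP fell in the same 4 extracts, by less. ALB (ENSG00000163631, chr4:73397114-73421412) was 10370, 10020 and 10530 CPM in the vehicle and 8012, 7999 and 8093 CPM with high dose Sayeok-tang, with no overlap (-0.36 ± 0.038, adjusted p = 1.1e-10). Dried ginger gave 8078 and 8053 CPM (-0.35 ± 0.043, 2.2e-09), Scutellariae Radix 8260, 8299 and 8347 CPM (-0.31 ± 0.038, 1.5e-09) and fresh ginger 8597, 8907 and 9275 CPM (-0.21 ± 0.038, 1.1e-05). The ALB libraries of these groups all lay below the vehicle libraries. ALB fell by 22.1% with Sayeok-tang and fell by 13.4% with fresh ginger. Pinelliae Tuber, at 9831, 10510 and 10700 CPM, spanned the vehicle range (0.01, 95% interval -0.071 to 0.082). With Bojungikgi-tang ALB was 9611 and 9365 CPM, below all 3 vehicle libraries but not called (-0.12 ± 0.042, adjusted p = 0.1). Without the 2 libraries that stand apart, which belong to other groups and enter only through the shared spread, its adjusted p was 0.0323.

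AFP (ENSG00000081051, chr4:73431138-73456174) lies downstream of ALB on the same strand. Its vehicle libraries held 3979, 3745 and 4052 CPM. With dried ginger it was 2669 and 2684 CPM, a change of -0.55 ± 0.041 (adjusted p = 2.2e-15), and with Scutellariae Radix 2793, 2689 and 2694 CPM (-0.53 ± 0.036, 8.4e-17). With dried ginger AFP fell by 31.8% and ALB fell by 21.8% in the same libraries. With Scutellariae Radix AFP fell by 30.6% and ALB fell by 19.5%. With Sayeok-tang AFP was 3487, 3321 and 3338 CPM and fell by 13.8% (adjusted p = 4.4e-06), and with fresh ginger it was 3385, 3535 and 3405 CPM and fell by 12.3% (2.6e-05). AFP was not called with Pinelliae Tuber (3836 to 3952 CPM) or Bojungikgi-tang (3747 and 3777 CPM).

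The ratio of AFP to ALB counts therefore moved both ways between extracts. It was 0.3807 ± 0.006058 in the vehicle (SD, n = 3), 0.3318 ± 0.002051 with dried ginger (n = 2) and 0.3284 ± 0.008541 with Scutellariae Radix at the high dose (n = 3), with no overlap. With Sayeok-tang the ratio was 0.421 ± 0.01248 at the high dose, and it stood at 0.4226 ± 0.01497 and 0.4141 ± 0.02168 at its medium and low doses (n = 3 each), all of whose libraries lay above the vehicle libraries too. With Scutellariae Radix the ratio at the medium dose, 0.4014 ± 0.00379, was above the vehicle, so it was not ordered by dose. The ratio also lay above all vehicle libraries in groups with small changes of either gene, such as dried ginger low (0.4024 ± 0.005755, n = 3), Scutellariae Radix low (0.3998 ± 0.007202, n = 3) and Bojungikgi-tang low (0.3982 ± 0.008132, n = 2). No test was run on the ratio.

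**Figure D3:**
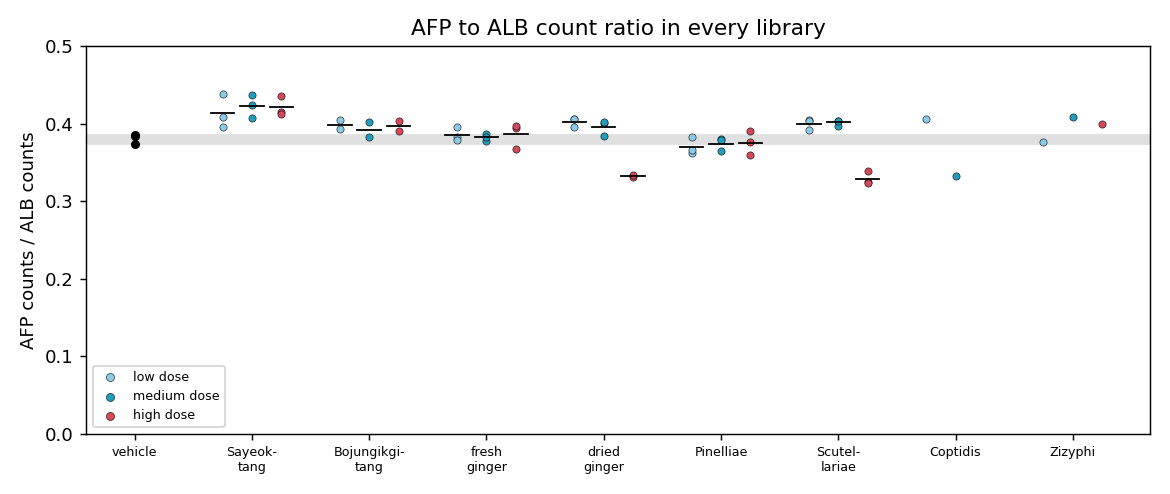
Ratio of AFP to ALB counts in each library (points) by extract and dose (colour), with group means as short lines and the vehicle range as a grey band. The ratio was lowest at the high doses of dried ginger (0.3318) and Scutellariae Radix (0.3284) and in the Coptidis Rhizoma medium library (0.3326), and the Sayeok-tang libraries lie above the vehicle band at every dose.

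TF and TTR separated the extracts further. TF (ENSG00000091513, chr3:133745956-133796640), the iron carrier, was 2138, 2123 and 2293 CPM in the vehicle. With Scutellariae Radix it was 1409, 1349 and 1348 CPM (-0.675 ± 0.032, adjusted p = 9.5e-23), so that it fell by 37.4%, and with dried ginger 1537 and 1548 CPM (-0.50 ± 0.036, 4.4e-16). These libraries were far below the vehicle. Sayeok-tang had 1866, 1911 and 1962 CPM, and TF fell by 12.4% there (adjusted p = 2.7e-06). Fresh ginger, at 2090, 2071 and 2081 CPM, lay just under the vehicle libraries and was not called (-0.07 ± 0.032, adjusted p = 0.062), though DESeq2 gave an adjusted p of 0.0423 and leaving out vehicle replicate 1 or 2 gave 0.0457 and 0.0315 in edgeR, and leaving out the 2 libraries that stand apart gave 0.0425. SRPRB overlaps TF on the same strand, with reads equal to 3.8918% of those of TF. SRPRB was higher by 0.43 ± 0.05 with dried ginger (adjusted p = 8.8e-10), 0.21 with Sayeok-tang (0.00017) and 0.19 with Scutellariae Radix (0.00048). It was also higher with Pinelliae Tuber (0.16, 0.0093) and fresh ginger (0.11, 0.039), where TF was not called.

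TTR (ENSG00000118271, chr18:31557010-31599021), the thyroxine carrier, had 57.83, 47.04 and 57.18 CPM in the vehicle libraries, replicate 2 being low. Scutellariae Radix gave 31.72, 28.89 and 30.34 CPM, and TTR fell by 43.8% (-0.83 ± 0.076, adjusted p = 6e-13). With Pinelliae Tuber TTR was 40.96, 39.44 and 44.39 CPM, below every vehicle library (-0.375 ± 0.073, adjusted p = 0.00025), the largest change of the 10 genes with that extract. Dried ginger gave 45.74 and 41.54 CPM (-0.31 ± 0.083, adjusted p = 0.0022). This call was lost without its own replicate 2 (-0.238), a fit that leaves 1 library in the group and takes the spread from the other groups. Fresh ginger, in contrast, gave 60.31, 65.08 and 62.69 CPM, above every vehicle library (0.22 ± 0.071, adjusted p = 0.01), but this call was lost without vehicle replicate 2 (0.125, adjusted p = 0.17) and without its own replicate 2 (0.189, adjusted p = 0.0503). With Sayeok-tang TTR overlapped the vehicle at 47.21 to 50.44 CPM and was not called (adjusted p = 0.12), while without vehicle replicate 2 it was (-0.234, adjusted p = 0.0113), as it was without the 2 libraries that stand apart (-0.142, 0.0493).

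The retinol carrier RBP4, which circulates bound to TTR, was lower with fresh ginger (403.7 to 436.7 CPM) and Scutellariae Radix (408.3 to 434.5 CPM) than in the vehicle (485.7 to 540.6 CPM), by -0.30 ± 0.055 (adjusted p = 1e-05) and -0.29 ± 0.055 (1.2e-05). So with fresh ginger RBP4 fell while TTR was higher, and with Pinelliae Tuber TTR fell while RBP4, at 509 to 568.4 CPM, was not called. RBP4 was not called with the other 3 replicated extracts either, although without vehicle replicate 2 it was lower with Sayeok-tang (-0.15, adjusted p = 0.0425) and dried ginger (-0.175, adjusted p = 0.0264). The dried ginger value of RBP4 (-0.13 ± 0.061, adjusted p = 0.083) was also called with no filter (0.0287), with only the compared groups fitted (0.0329) and without the 2 libraries that stand apart (0.0381).

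SERPINA1, the antiprotease, fell by 23.2% with Scutellariae Radix (4005 to 4069 CPM against 4967 to 5449 in the vehicle, adjusted p = 3.7e-10) and fell by 17.3% with dried ginger (adjusted p = 8.7e-06). With Pinelliae Tuber it fell by 10.9% (adjusted p = 0.0059, and 0.0556 without vehicle replicate 3), and with Sayeok-tang it fell by 8.78% (adjusted p = 0.013). The Sayeok-tang call was lost without vehicle replicate 1 or 3 or its own replicate 2 or 3 (adjusted p of 0.0578, 0.0823, 0.0556 and 0.0514), and its libraries overlapped the vehicle. SERPINA1 stayed at 4980 to 5422 CPM with fresh ginger (0 ± 0.044).

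AHSG, the calcium-binding fetuin, was called in opposite directions in different extracts. With fresh ginger it was 2435, 2302 and 2301 CPM against 1884, 1739 and 1921 in the vehicle, above all of them (0.34 ± 0.035, adjusted p = 2.4e-11). It fell by 13.3% with Scutellariae Radix (1528 to 1639 CPM, adjusted p = 2.4e-06) and fell by 12.3% with Pinelliae Tuber (1574 to 1645 CPM, adjusted p = 0.00013). With Sayeok-tang and dried ginger it was not called, at -0.02 and -0.05.

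AMBP was higher in each of the 4 extracts that lowered HP, ALB and AFP. It stood at 921.2 to 931.6 CPM with dried ginger, 885.1 to 938.4 with Scutellariae Radix and 897.2 to 923.2 with Sayeok-tang, against 775.6 to 832.6 in the vehicle. The changes were 0.19 ± 0.038 (adjusted p = 4.9e-05), 0.18 ± 0.034 (1.6e-05) and 0.17 ± 0.034 (9.3e-05), with no overlap. With fresh ginger it was 825.4 to 899.3 CPM, which overlapped the vehicle (0.10 ± 0.034, adjusted p = 0.018), and this call was lost without vehicle replicate 2 (0.157), without its own replicate 1 (0.13) or 3 (0.0581), with no filter (0.0647) and with only the compared groups fitted (0.133). Bojungikgi-tang (863.9 and 891.4 CPM) had 0.11 ± 0.038, which edgeR did not call (adjusted p = 0.078) and DESeq2 did (0.0457), as did edgeR without the 2 libraries that stand apart (0.0388). Its AMBP libraries, and those of Pinelliae Tuber (838.3 to 849.6 CPM, not called), also lay above every vehicle library. Over the 24 groups the correlation of AMBP with the other 9 genes was negative throughout, from -0.755 with AFP to -0.0953 with AHSG, as a description of groups that share scaling and extracts.

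**Figure D4:**
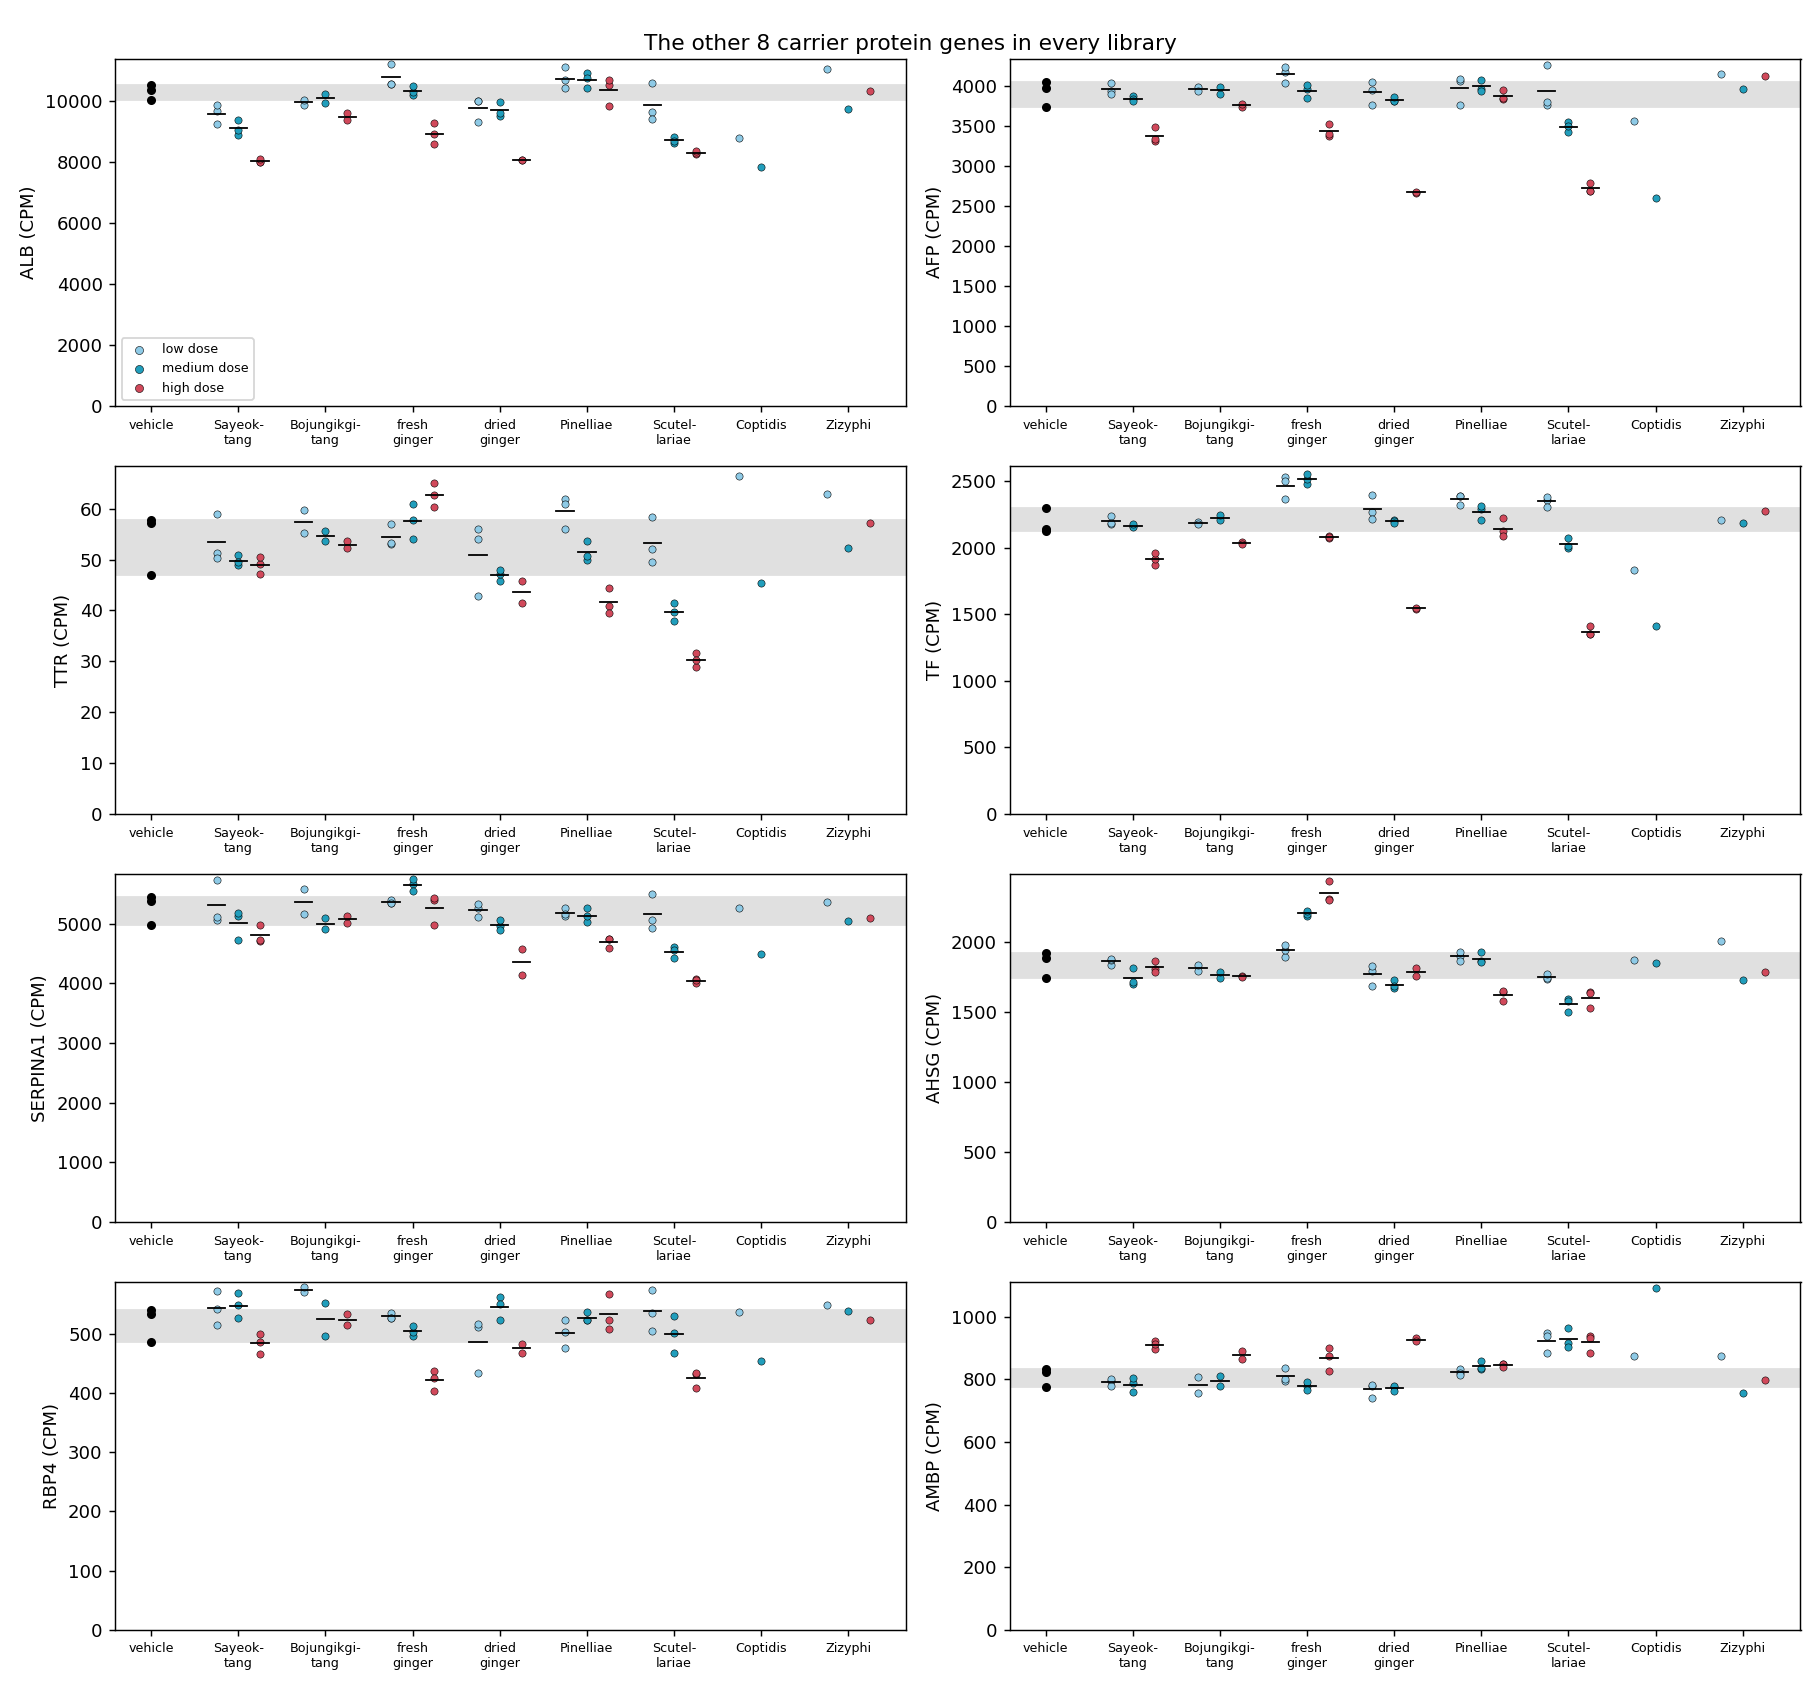
CPM of the 8 genes other than HP and HPX in each library (points) by extract and dose (colour), with group means as short lines and the vehicle range as a grey band; each panel starts at 0. AFP and TF drop clearly below the band at the high doses of dried ginger and Scutellariae Radix, and AHSG rises above it with fresh ginger. AMBP lies above it at the high dose of Sayeok-tang, Bojungikgi-tang, dried ginger and Pinelliae Tuber and at all doses of Scutellariae Radix. The Coptidis Rhizoma libraries and the Zizyphi Fructus low library also lie above the AMBP band.

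At the medium dose 15 of 60 tests were called, 3 higher and 12 lower (5.94% of all tests over all genes). Scutellariae Radix at 100 µg/mL accounted for 9 of them (18.3% of all tested genes), all but RBP4. HPX there was 8.948, 8.865 and 10.49 CPM and fell by 26% (adjusted p = 6.3e-05), and TTR was 39.74, 37.84 and 41.56 CPM and fell by 26.4% (1.3e-05). HP, at 167.7, 166.3 and 182.8 CPM, fell by only 10.4% (0.0084), and AFP fell by 10.9% (0.00063), so TTR and HPX changed most at this dose. The HP call was lost without own replicate 1 or 2 (0.0525 and 0.0603). TF fell by 7.28% (0.011), a call lost with no filter (0.099), with only the compared groups fitted (0.0699), and without vehicle replicate 3 (0.157) or own replicate 1 (0.0534). Fresh ginger at the medium dose lowered HP to 131.3, 133.6 and 135.1 CPM (-0.53 ± 0.045, adjusted p = 2.2e-12) and HPX to 7.94, 7.967 and 9.326 CPM (-0.59 ± 0.082, 4.8e-07), below every vehicle library. It raised TF to 2478, 2515 and 2549 CPM (0.20 ± 0.032, 6e-06) and AHSG to 2184, 2199 and 2222 CPM (0.25 ± 0.035, 6.1e-07), for 4 calls in all (11.3% of all genes). TF was thus above the vehicle at the medium dose of fresh ginger and just under it at the high dose. Sayeok-tang at the medium dose had 2 calls (4.22% of all genes). ALB was lower there, at 8888, 9044 and 9373 CPM (-0.18 ± 0.038, adjusted p = 0.0025), and HPX at 9.862 to 11.73 CPM (-0.28 ± 0.079, 0.033). The HPX call was lost in DESeq2 (0.0656), with no filter (0.0647), with only the compared groups fitted (0.0646) and without vehicle replicate 1 or 3 or its own replicate 2 or 3 (0.058, 0.194, 0.138 and 0.166). HP, at 181.6 to 188.9 CPM, was not called with Sayeok-tang at this dose, and none of the 10 was called in edgeR at the medium doses of Bojungikgi-tang (0.0645% of all genes), dried ginger (1.45%) and Pinelliae Tuber (0.287%). The lowest adjusted p there was that of AHSG with dried ginger (-0.125 ± 0.035, adjusted p = 0.057), at 1673 to 1724 CPM below every vehicle library. AHSG was called there in DESeq2 (0.008), with RLE scaling (0.0384), with scaling without the 10 genes (0.0413) and with the replicate block (0.0458). It was also called without the 2 libraries that stand apart (0.0278) and without vehicle replicate 2 (0.00903). TTR with dried ginger (-0.20, adjusted p = 0.17) was called with no filter (0.0119) and without vehicle replicate 2 (0.0291). HP with medium dose Bojungikgi-tang, at 214.1 and 218.8 CPM, lay above every vehicle library (190 to 195.9 CPM) but was not called (0.171). Its mean of 216.4 CPM was the highest HP mean of the 24 groups.

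At the low dose 3 of 60 tests were called, all higher (2.23% of all tests over all genes). TF was higher with fresh ginger at 20 µg/mL (2365, 2532 and 2499 CPM, 0.17 ± 0.032, adjusted p = 0.0016; 0.602% of all genes called) and with Scutellariae Radix (2358, 2377 and 2302 CPM, 0.10 ± 0.032, adjusted p = 0.03; 10.3% of all genes, and 5.24% without the 2 libraries that stand apart). The fresh ginger TF call was lost without own replicate 2 (0.0513). That of Scutellariae Radix was lost with no filter (0.127), with only the compared groups fitted (0.346), without vehicle replicate 1 or 2 (0.125 and 0.153) and without own replicate 1 or 2 (0.0659 and 0.0752), and without the 2 libraries that stand apart it was 0.116 (adjusted p = 0.0263). AMBP was higher with Scutellariae Radix, at 949.6, 938.3 and 884.4 CPM (0.19 ± 0.034, adjusted p = 0.00018, 0.0843 with only the compared groups fitted, and 2.8e-05 without those 2 libraries), much as at its medium (903.3 to 962.9 CPM) and high doses. In the other low dose groups none of the 10 genes was called in edgeR, where 0.0574% of all genes were called with Sayeok-tang, 0% with Bojungikgi-tang, 2.12% with dried ginger (0.352% without the 2 libraries) and 0.272% with Pinelliae Tuber. Without the library that stands apart in the Scutellariae Radix low group and that in the dried ginger low group, 6 tests were called, 4 higher and 2 lower. Those added were TF with Pinelliae Tuber (0.113, adjusted p = 0.0497) and ALB (-0.116, 0.0442) and HPX (-0.309, 0.017) with Scutellariae Radix. Over all genes 1.26% of tests were called in that setting. With only the compared groups fitted, 1 test was called, TF with fresh ginger. Over all genes 223 were then higher and 78 lower with fresh ginger and 84 and 44 with Pinelliae Tuber. The fit to all groups had 71 and 13, and 33 and 5. Counts were 147 and 170 with Scutellariae Radix and 9 and 4 with dried ginger, where the fit to all groups had 759 and 679, and 236 and 60. Sayeok-tang had 2 and 1 (2 and 6 in the fit to all groups) and Bojungikgi-tang 1 and 1 (0 and 0).

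Coptidis Rhizoma and Zizyphi Fructus had 1 library at each dose and so no replicate check, and a fold of at least 1.5 was counted in place of a test. In the Coptidis Rhizoma library at 56 µg/mL, 4 of the 10 genes passed that fold, all lower (21.4% of all tested genes passed it). HP was 59.15 CPM (-1.70), the lowest of all 58 libraries, HPX 4.143 CPM (-1.62), TF 1411 CPM (-0.63) and AFP 2601 CPM (-0.59), also its lowest library. ALB, at 7821 CPM, was likewise lower than in any other library, and AMBP, at 1093 CPM (0.43), higher. At 11.2 µg/mL, HP was 127.2 CPM (-0.60) and HPX 7.883 CPM (-0.69), the 2 genes past the fold (6.15% of all), while ALB was 8791 CPM and TTR 66.43 CPM, its highest library. The 10 genes took 1.8107% of counts in the medium dose library. In the Zizyphi Fructus libraries 0 of the 10 genes passed the fold at the high, medium or low dose (2.71, 2.81 and 3.63% of all genes did). HP stood there at 208.8, 199.2 and 209.6 CPM.

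High against low dose of the same extract does not use the vehicle libraries. Of 60 tests 39 were called, 6 higher and 33 lower (33.4% of all tests over all genes). By extract the genes called were 9 with Scutellariae Radix (55.7% of all genes), 9 with fresh ginger (47.6%), 8 with dried ginger (47.4%), 8 with Sayeok-tang (37.6%), 4 with Pinelliae Tuber (10.1%) and 1 with Bojungikgi-tang (1.69%). Without the 2 low dose libraries that stand apart, Scutellariae Radix had 9 and dried ginger 8 again. HP fell from the low to the high dose by 1.42 on the log2 scale with fresh ginger (SE 0.047), by 1.32 with dried ginger (SE 0.054), by 1.15 with Sayeok-tang (SE 0.046) and by 0.93 with Scutellariae Radix (SE 0.046). With Pinelliae Tuber HP changed by 0.06 ± 0.045, while TTR fell by 0.52 (SE 0.073, adjusted p = 1.1e-06), AHSG fell by 0.225 (SE 0.035, 9.6e-06) and TF fell by 9.28% (0.0018). The gene called with Bojungikgi-tang was AMBP, higher by 0.17 ± 0.042 (adjusted p = 0.026). That call was lost with no filter (0.0789) and with only the compared groups fitted (0.25). It was also lost without high dose replicate 2 or 3 or low dose replicate 2 (0.187, 0.142 and 0.119 on the log2 scale). Those fits leave 1 library at a dose and take the spread from the other groups. With Sayeok-tang the SERPINA1 call was lost with only the compared groups fitted (0.0586) and without low dose replicate 2 (0.157). Its RBP4 call was lost without high or low dose replicate 2 (0.075 and 0.107). The AHSG call of Scutellariae Radix was lost with only the compared groups fitted (0.0769). The TTR calls of both gingers also depended on single libraries. That of fresh ginger (0.20, adjusted p = 0.015) was lost without high dose replicate 2 (0.0689) or low dose replicate 1 or 2 (0.0557 and 0.0528). That of dried ginger (-0.22, 0.025) was lost with only the compared groups fitted (0.167) and without low dose replicate 1 or 2 (0.11 and 0.163). It was also lost without high dose replicate 2 (-0.152), which leaves 1 library at that dose. Without the 2 libraries that stand apart it was -0.334 (0.000227). The SERPINA1 call of Pinelliae Tuber was lost without any 1 high dose replicate or low dose replicate 2 or 3 (0.0504 to 0.105). The AMBP call of fresh ginger was lost with only the compared groups fitted (0.068). It was also lost without high dose replicate 1 or 3 or low dose replicate 1 or 2 (0.0568 to 0.128).

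**Figure D5:**
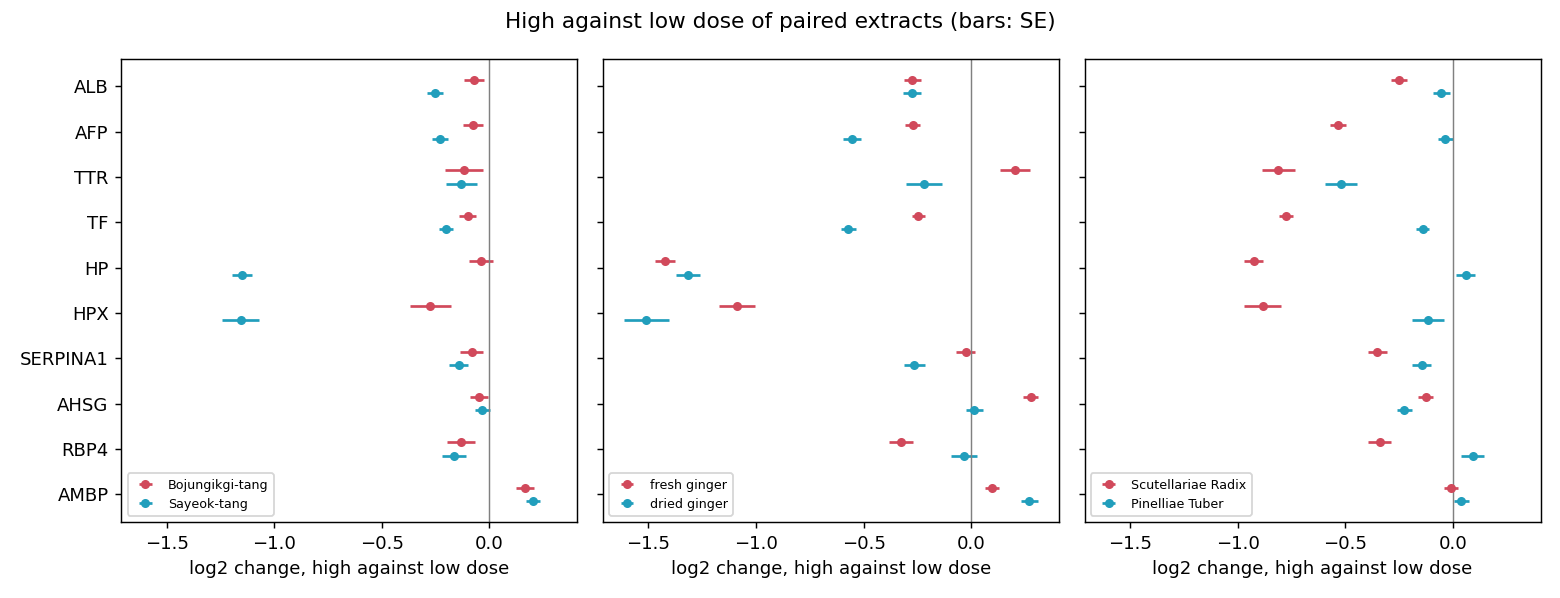
Log2 change from the low to the high dose (points, with bars of 1 SE) of each gene (rows) in the extract pairs that share a code prefix: Bojungikgi-tang and Sayeok-tang, fresh and dried ginger, Scutellariae Radix and Pinelliae Tuber. HP and HPX separate the first and the third pair most (-0.04 against -1.15 and -0.93 against 0.06 for HP), while for HP the gingers lie together at -1.42 and -1.32 and differ in AFP, TTR and TF.

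Extracts given at the same high dose were compared directly within the 3 pairs that share a prefix, in 30 tests of which 21 were called (35.2% of all tests over all genes), with p-values adjusted over all genes within each pair. Sayeok-tang and Bojungikgi-tang, both formulas extracted in hot water, differed in 4 genes (26.2% of all). HP was higher with Bojungikgi-tang by 1.10 ± 0.051 (adjusted p = 1e-21), HPX by 1.01 ± 0.096 (1.5e-11), ALB by 0.24 ± 0.042 (1.8e-05) and AFP by 0.15 ± 0.041 (0.0033). AMBP, AHSG, SERPINA1, RBP4, TTR and TF were not called, with 95% intervals that ran from -0.134 for AHSG to 0.279 for TTR at the widest. TF among these (0.09 ± 0.035, adjusted p = 0.055) was called in DESeq2 (0.0338), without the 2 libraries that stand apart (0.0351) and without Sayeok-tang replicate 3 (0.0375). Scutellariae Radix and Pinelliae Tuber differed in 9 genes, 1 higher and 8 lower with Scutellariae Radix (55.9% of all). HPX was lower by -1.055 ± 0.085 (adjusted p = 1.2e-14), HP by -0.96 ± 0.046 (2.1e-22) and TF by -0.65 ± 0.032 (4.8e-22), and AMBP was higher by 0.12 ± 0.034 (0.0027). AHSG alone was not called (-0.02, 95% interval -0.089 to 0.054).

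Fresh and dried ginger are the same rhizome before and after drying, and both were 70% ethanol extracts at 500 µg/mL. They differed in 8 genes, 7 higher and 1 lower with fresh ginger (23.5% of all). TTR was higher with fresh ginger by 0.52 ± 0.082 (adjusted p = 2.8e-06), HPX by 0.58 ± 0.116 (0.00013), TF by 0.43 ± 0.036 (3.3e-13), AHSG by 0.395 ± 0.04 (8.3e-11), AFP by 0.36 ± 0.041 (1.7e-09) and SERPINA1 by 0.275 ± 0.049 (2.6e-05). Their libraries did not overlap for any of these genes. HP did not differ detectably, at 71.31 to 77.22 and 69.76 to 76.94 CPM (0.02, 95% interval -0.09 to 0.134). ALB (0.15 ± 0.042, 0.0089) was called, but not without fresh ginger replicate 3 (0.0609) or with only the compared groups fitted (0.088). Nor was ALB called without dried ginger replicate 1 or 2 (0.148 and 0.144 on the log2 scale). Those fits leave 1 dried ginger library and take the spread from the other groups. RBP4 was lower with fresh ginger (-0.17 ± 0.061, 0.033), a call lost without fresh ginger replicate 2 or 3 (0.0518 and 0.13). The RBP4 call was also lost without dried ginger replicate 1 or 2 (-0.149 and -0.197 on the log2 scale), again with 1 dried ginger library left. AMBP (-0.10 ± 0.038, adjusted p = 0.065) was not called, but was in DESeq2 (0.0484), with the replicate block (0.0383), without the 2 libraries that stand apart (0.037) and without fresh ginger replicate 1 (0.0252).

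Among 7599 genes with a mean of at least 20 CPM, those whose mean log2 CPM followed HP most closely over the 24 groups were HPR (Pearson r = 0.986), FGA (0.983) and FGB (0.983). HPR may have split reads with HP in the counting, as said above, so its place here may reflect shared reads, which was not tested. FGA and FGB encode fibrinogen chains. FGA ran from 303 to 1099 CPM and FGB from 101.6 to 288.3 CPM over the 58 libraries, and the group means of both were lowest with high dose dried ginger. For AFP they were HHEX (0.967), TNFRSF19 (0.967) and NUSAP1 (0.965), and for ALB SERPINA5 (0.934), PEBP1 (0.921) and STARD10 (0.907), all lowest in the Coptidis Rhizoma medium library. HHEX encodes a homeobox factor of liver development and NUSAP1 a spindle protein. These are the closest of many genes over groups that share libraries and extracts, given as a description.

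Of 24 other secreted plasma proteins of hepatocytes, 20 were tested, and at the high dose 16 fell with Scutellariae Radix, 16 with dried ginger, 15 with fresh ginger and 14 with Sayeok-tang, while 2, 2, 3 and 2 rose. Over all tested genes 28.1, 22.8, 23.6 and 19.9% fell and 28.7, 23.3, 24.3 and 20.3% rose with these extracts. Their median log2 changes were -0.41, -0.46, -0.42 and -0.44. Pinelliae Tuber lowered 10 and raised 1, and Bojungikgi-tang lowered 5, with medians of -0.09 and -0.10. With Pinelliae Tuber 6.57% of all genes fell and 9.14% rose, and with Bojungikgi-tang 4.55% were called in either direction. SERPINA7, the thyroxine-binding globulin and a further carrier of the hormone that TTR binds, fell from 133.9 ± 5.16 CPM (n = 3) to 47.7 ± 1.84 (n = 2) with dried ginger (-1.49 ± 0.063, adjusted p = 5.2e-24). SERPINA6, the corticosteroid-binding globulin, fell by 47.6% with Scutellariae Radix and fell by 43% with Sayeok-tang. CP, the copper carrier ceruloplasmin, went the other way, from 67.23 ± 5.43 to 185.0 ± 10.2 CPM with fresh ginger (n = 3 each, 1.46 ± 0.07, adjusted p = 3.3e-22) and to 150.4 ± 7.52 with Sayeok-tang (n = 3), but was not called with Scutellariae Radix (-0.10 ± 0.073). The 8 hepatocyte and hepatoma markers moved as well, 7 of 8 lower with Scutellariae Radix, 6 with Sayeok-tang, 6 with fresh ginger and 4 with dried ginger (1 was higher with Scutellariae Radix and with each ginger), and 0 with Pinelliae Tuber and Bojungikgi-tang, and their part in the falls above was not tested.

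Of the receptors and intracellular partners of these carriers, 13 of 16 were tested, and they split between directions, with 6 higher and 7 lower for Scutellariae Radix, 7 and 5 for dried ginger, 6 and 4 for fresh ginger and 5 and 6 for Sayeok-tang. For Pinelliae Tuber 1 was higher and 2 lower, and for Bojungikgi-tang 1 and 1. Of all genes 56.7, 46.1, 47.9, 40.2, 15.7 and 4.55% were called with these 6 extracts in that order. HMOX1, which degrades haem, rose by 54.1% with Scutellariae Radix (59.05 to 90.93 CPM, adjusted p = 9.9e-15), by 26.9% with dried ginger (2e-06) and by 11.3% with Sayeok-tang (0.013). With fresh ginger, where HPX fell as well, HMOX1 was not called (0.11, adjusted p = 0.062). FTH1, the ferritin heavy chain that stores iron, rose by 78.4% with Scutellariae Radix, 72.7% with dried ginger and 29.9% with Sayeok-tang. It also rose by 25.1% with fresh ginger (adjusted p = 1e-04), where TF was not called. DIO1, the deiodinase that activates thyroxine, fell by 57% with Scutellariae Radix (adjusted p = 2.5e-21) and fell by 41.4% with dried ginger (7.3e-13), where TTR was lower. DIO1 also fell by 48.5% with fresh ginger (1e-17), where TTR was higher, and fell by 44.8% with Sayeok-tang (5.7e-16), where TTR was not called. With Pinelliae Tuber, where TTR was lower, DIO1 was not called (-6.87%).

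Among 18 tested transcription factors of the hepatocyte secretory program, 13 fell and 3 rose with dried ginger, 11 and 3 with each of fresh ginger and Scutellariae Radix, and 11 and 1 with Sayeok-tang. Pinelliae Tuber had 1 each way and Bojungikgi-tang 4 lower. The shares of all genes that fell were 22.8% with dried ginger, 23.6% with fresh ginger, 28.1% with Scutellariae Radix and 19.9% with Sayeok-tang, as above. Those that rose were 23.3, 24.3, 28.7 and 20.3% in the same order. With Pinelliae Tuber 9.14% rose and 6.57% fell, and with Bojungikgi-tang 4.55% were called in either direction. NR1H4, the bile acid receptor, fell by 70.1% with fresh ginger (73.9 to 22.08 CPM, adjusted p = 1.1e-29) and fell by 66.5% with Scutellariae Radix (9.7e-29), and was not called with Pinelliae Tuber. With Scutellariae Radix CEBPA fell from 138.8 to 58.57 CPM (-1.25 ± 0.123, 5.4e-12) and CEBPB rose from 27.16 to 68.53 CPM (1.33 ± 0.192, 8.5e-08). CREB3L3, an endoplasmic reticulum factor that acts on acute phase genes, rose with dried ginger by 92.5% (3.5e-11) and with fresh ginger by 44.4% (3.4e-06).

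The 18 genes of the secretory pathway showed another division. With dried ginger 12 rose and 2 fell and with Sayeok-tang 9 rose and 2 fell, while with Scutellariae Radix 1 rose and 9 fell. Fresh ginger had 7 higher and 4 lower, Pinelliae Tuber 3 and 1 and Bojungikgi-tang 0 and 1. Over all genes 23.3% rose and 22.8% fell with dried ginger, 20.3 and 19.9% with Sayeok-tang and 28.7 and 28.1% with Scutellariae Radix. The shares were 24.3 and 23.6% with fresh ginger and 9.14 and 6.57% with Pinelliae Tuber, and 4.55% in either direction with Bojungikgi-tang. SSR3, a subunit of the translocon-associated complex, rose by 48.6% with dried ginger (adjusted p = 1.1e-14) and was not called with Scutellariae Radix (4.77%). With Scutellariae Radix the folding helper CALR fell by 34% (4.9e-21) and the disulfide isomerase PDIA4 fell by 30.1% (3e-21), while PDIA4 fell by 5.89% with fresh ginger (0.0057) and rose by 6.14% with dried ginger (0.015). CALR also fell by 16.1% with dried ginger, fell by 9.45% with Sayeok-tang and fell by 6.6% with fresh ginger (adjusted p of 7.2e-08, 0.00024 and 0.0083). FURIN, a protease of the Golgi that processes precursors, fell by 35.7% with Scutellariae Radix (1.3e-11). It fell by 25.4% with Bojungikgi-tang (0.00012), fell by 16.8% with Pinelliae Tuber (0.0027) and fell by 11% with Sayeok-tang (0.03). All of these comparisons share the same vehicle libraries.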

How the data were processed

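Per the submitters' processing notes, reads of HepG2 libraries (100 bp pairs, made from 1 µg of RNA with a strand-keeping kit) were processed with FastQC 0.11.9, Trim Galore 0.6.5, STAR 2.7.3a and RSEM 1.3.3, on GRCh38. The values as deposited are expected counts per gene, estimated by the authors with RSEM and not scaled, and 75.26% of the nonzero values were whole. They were rounded here, and 209 further columns were not used. Wortmannin was not analysed here. Columns were matched to samples by title code.

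After a filter that kept 13945 genes reaching 1 CPM in 3 or more libraries, counts were scaled by TMM and tested in edgeR 4.0.16 (R 4.3.3, limma 3.58.1) by a two-sided quasi-likelihood fit with 1 mean per group over 58 libraries, without a replicate block. Adjustment was Benjamini-Hochberg within each comparison, called below 0.05. SE is the absolute log2 change over the square root of F. Groups of 1 library have no test. Alternatives were DESeq2 1.42.0, RLE scaling, scaling without the 10 genes, no filter, only the compared groups, a replicate block, and leaving out each library. In a group of 2 libraries the last of these leaves 1, and the spread then comes from the other groups. The fit was tested on simulated data. Replicates were compared by chi-square over genes with at least 10 reads, and the lowest value per gene was 2.04, so none was a copy.

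The members and gene lists were chosen with earlier results of these data known. Full values are given for genes called at a high dose with a fold of at least 1.5, and for ALB and AFP. Up to 4 genes came from each other list, those called at a high dose with the largest change and at least 5 CPM in the higher group. A gene that this rule names is not reported here. For ALB, AFP and HP the 3 genes of at least 20 CPM with the closest pattern are named. HPR, TXNL4B, SRPRB, the coding length scale, the motifs, the 150-base window, the differences between dose responses and the fit without 2 libraries were chosen after seeing the data. Symbols were matched for 57055 of 60675 identifiers, positions are from GENCODE release 29, and promoters from RefSeq.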

Additional observations from a re-analysis of the deposited data

Results flagged for a closer look

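The change from the low to the high dose differed between extracts that share a code prefix for 19 of 30 gene and pair combinations, each tested as a difference of differences in edgeR (adjusted p below 0.05 over all genes, where 13.9, 15.9 and 44.4% of all genes were called in the 3 pairs). Bojungikgi-tang minus Sayeok-tang gave 1.11 for HP (adjusted p = 5.6e-16), 0.881 for HPX (1.6e-06) and 0.184 for ALB (0.032), all because these genes fell with dose more with Sayeok-tang. Fresh minus dried ginger gave 0.424 for TTR (0.0045), 0.422 for HPX (0.03), 0.325 for TF (1.3e-06), 0.281 for AFP (0.00018), 0.262 for AHSG (0.00031) and 0.239 for SERPINA1 (0.0082). In the same pair it was -0.294 for RBP4 (0.009) and -0.174 for AMBP (0.015), so the gingers differed in both directions, and TTR moved up with dose in fresh ginger (0.20) and down in dried ginger (-0.22). Scutellariae Radix minus Pinelliae Tuber gave -0.984 for HP (3.3e-17), -0.769 for HPX (3.7e-07), -0.637 for TF (4.1e-16), -0.499 for AFP (4.5e-11), -0.432 for RBP4 (9.1e-06), -0.292 for TTR (0.021), -0.207 for SERPINA1 (0.0054) and -0.197 for ALB (0.0023).

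Replicate 3 of dried ginger low and replicate 3 of Scutellariae Radix low enter the second and the third pair. Without them each of the 19 differences kept its direction and stayed called, with TTR at 0.537 and HPX at 0.386 (adjusted p = 0.05 after rounding, just under the threshold) between the gingers, and ALB at -0.144 and TTR at -0.222 (0.045) between Scutellariae Radix and Pinelliae Tuber. AFP between Bojungikgi-tang and Sayeok-tang, 0.153 with an adjusted p of 0.069 over all libraries, was then called as well (0.018).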

How the results depend on the processing

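No called direction reversed under any setting run. The number of the 10 genes called was recomputed for the 15 high dose, high against low and pair comparisons and for the medium and low dose totals, and all but 3 of these 17 stayed within 1.5 times. Single medium and low dose comparisons were not counted this way, and their lost calls stand in the report. High dose Bojungikgi-tang against the vehicle, with 0 called, gave 1 with a replicate block (AMBP, with 355 of all genes higher and 336 lower), 2 in DESeq2 (257 and 284) and 2 without the 2 libraries that stand apart (454 and 421). Its high against low dose, with 1, gave 0 with no filter and 0 with only the compared groups. The low dose total of 3 became 6 without those 2 libraries and 1 with only the compared groups. Leaving out each library in turn, the calls against the vehicle at the high dose ran from 6 to 9 for Sayeok-tang, 0 to 0 for Bojungikgi-tang, 7 to 9 for each ginger, 2 to 3 for Pinelliae Tuber and 10 to 10 for Scutellariae Radix. For high against low dose they ran from 6 to 8, 0 to 1, 7 to 9 (fresh), 7 to 8 (dried), 3 to 4 and 9 to 9 in that order, for the pairs from 4 to 5, 6 to 9 and 9 to 9, and for the medium and low dose totals from 13 to 18 and 2 to 4. Replicate numbers were treated as shared labels without pairing. In no comparison with 3 pairs of same-numbered libraries did every pair have deviations correlated above 0.1. Comparisons with 2 pairs could not meet that rule, so it does not decide on pairing there. In the high against low dose comparison of Bojungikgi-tang, each of the 2 pairs had 0.124. The replicate block left 16 of 17 counts within 1.5 times. RLE scaling and scaling without the 10 genes moved no count beyond that. HPX and TTR were the least precise of the 10 genes, with median coefficients of variation between replicates of 5.97% and 4.68%. The reason for this was not tested.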
